A study of Ambystoma mexicanum with 20 samples.

Results

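The 4 libraries described here came from the soft tissue (ST) of the axolotl limb stump during treatment with MS-275, 2 at 8 days post-amputation (dpa) and 2 at 3 dpa, out of 20 libraries of the series. They were chosen by their labels for tissue, agent and day. MS-275 inhibits histone deacetylases, and by the labels 2 µl of a 25 mM solution was injected under the wound epidermis of juvenile axolotls every other day after amputation. Within the ST, the comparison of 8 dpa with 3 dpa under MS-275 was set beside the same comparison under the vehicle, DMSO (2 libraries at 8 dpa and 2 at 3 dpa), and beside 2 libraries of homeostatic tissue taken at 0 dpa. Each library was a pool of 4 limbs of 2 animals, cut at 3 and 8 dpa from the most distal 2 mm and at 0 dpa taken directly after amputation, and separated from the epidermis, so that the ST should hold connective tissue, muscle, nerve, vessels and blood cells together. The other 10 libraries were from the epidermis of the same groups. The paper counts 20 animals for all 20 libraries, so the epidermis and ST of a group came from the same animals. Levels in the epidermis are therefore not independent of those in the ST. No strain or genotype was given in the sources used here.

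An amputated axolotl limb is first sealed by a wound epidermis, while leukocytes enter the stump and damaged tissue is broken down. Connective tissue cells then lose their differentiated character, divide and collect under the wound epidermis as a blastema, which re-expresses genes of the embryonic limb bud and a remodelled matrix. Histone deacetylases remove acetyl groups from histones and are linked to compact, less active chromatin. In normal regeneration 3 dpa falls in the wound healing stage and 8 dpa in the stage of blastema formation. The comparison asks what still changed between these days when the enzymes were inhibited. The paper reports that the inhibitor impaired blastema formation. It also does not fully exclude a slight excess of homeostatic tissue in the treated samples, more likely on the later day than on the earlier. The 8 dpa MS-275 libraries are therefore named by day and not taken as blastema. Whether the make-up of the dissected tissue differed between the agents was not tested.

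Levels are given in TPM, a transcript's length-corrected share of its library, and log2 changes are on the log2(TPM + 0.1) scale. The ST libraries held the muscle of the stump, with 5487 to 7307 TPM of summed sarcomere genes in the 4 MS-275 libraries against 180 to 340 TPM in the epidermis of the same groups. The depth of the libraries is unknown, and in a bulk sample fewer cells of a type cannot be told apart from less RNA per cell. Of 180605 transcripts, 87546 were above 0 TPM in at least 5 of the 10 ST libraries and were tested. The replicates correlated at 0.91 at 8 dpa and at 0.863 at 3 dpa with MS-275, and the 4 pairings across days lay between 0.843 and 0.857. The scale of the libraries, measured by median ratio factors, was near even with MS-275, at 1.08 and 1.14 at 8 dpa against 1.15 and 1.05 at 3 dpa, whereas with DMSO it was 1.54 and 1.49 at 8 dpa against 0.975 and 1.09 at 3 dpa. Changes with DMSO, and differences from them, are therefore also given from TPM divided by these factors (rescaled TPM). At 0 dpa the factors were 0.68 and 0.53. Levels set beside those of 0 dpa are TPM as deposited, so their closeness depends on this scale.

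Few single transcripts passed the test between 8 and 3 dpa with MS-275. limma with Benjamini-Hochberg adjustment called 32 of 87546 transcripts at an adjusted p under 0.05, of which 9 rose (0.0103%) and 23 fell (0.0263%). Without adjustment, 10549 had a p under 0.05, 5.75% of all transcripts higher and 6.30% lower at 8 dpa. The same test with DMSO called 1676 transcripts, of which 1524 rose (1.74%) and 152 fell (0.174%). The median log2 change over all transcripts was 0.04 with MS-275 and 0.47 with DMSO, and with rescaled TPM 0.02 and 0.05. The difference of the 2 changes, tested by an interaction contrast of 4 groups that share no library, was called for 1084 transcripts, 963 of them lower (1.10%) and 121 higher (0.138%) with MS-275. With rescaled TPM, 5 transcripts passed with MS-275 (0.00114% higher and 0.00457% lower), 215 with DMSO (0.167% and 0.0788%) and 151 for the difference (0.0594% and 0.113%), so the size of these counts rests on the scale of the libraries. With the 4 MS-275 libraries alone in the model, limma called 0 transcripts and 11446 had an unadjusted p under 0.05. An exact permutation test of 2 against 2 libraries cannot give a two-sided p below 0.333.

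Of the 32 called transcripts, 8 were paired with a gene symbol, 6 that fell and 2 that rose. Of those that fell, S100G, S100A1, AVR4 and CRISPLD1 stood higher at 3 dpa with MS-275 than in any other ST group, as did DDB_G0268948, while CD59 did not.

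S100G, a small calcium-binding protein, had 3.56 and 2.39 TPM at 8 dpa with MS-275, against 96.3 and 232 TPM at 3 dpa. The DMSO and 0 dpa libraries lay between 0.04 and 0.86 TPM, so that S100G was high in the 3 dpa MS-275 pair. Its log2 change was -5.63 ± 0.58 (SE, limma adjusted p = 0.0386).

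S100A1, of the same family, had 1.01 and 1.26 TPM at 8 dpa against 52.7 and 184 TPM at 3 dpa with MS-275, and no other ST library exceeded 0.29 TPM. Its change was -6.33 ± 0.65 (adjusted p = 0.0386). In the epidermis the same 2 transcripts were near 0 at 0 dpa, with 0.73 and 1.09 TPM of S100G and 0.12 and 0.06 TPM of S100A1. With MS-275 they were high there on both days, with 182 and 348 TPM of S100G at 8 dpa against 483 and 347 TPM at 3 dpa, and 120 and 109 TPM of S100A1 at 8 dpa against 179 and 287 TPM at 3 dpa. The epidermal levels with DMSO were lower, at 7.07 and 10.2 TPM of S100G at 8 dpa against 44.4 and 82.2 TPM at 3 dpa.

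AVR4, named after an avidin-related chicken protein, had 4.37 and 3.10 TPM at 8 dpa against 133 and 389 TPM at 3 dpa with MS-275, and the DMSO and 0 dpa libraries held 1 to 15.1 TPM. Its mean was 69.8-fold higher at 3 dpa than at 8 dpa, a log2 change of -5.91 ± 0.58 (adjusted p = 0.0386). This transcript was abundant in homeostatic epidermis, with 241 and 235 TPM. CRISPLD1, a secreted cysteine-rich protein, was another epidermal transcript, with 153 and 223 TPM in the epidermis at 0 dpa. In the ST it had 0.16 and 0.69 TPM at 8 dpa against 12.7 and 22.8 TPM at 3 dpa with MS-275 (log2 change -5.24 ± 0.58, adjusted p = 0.0494).

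CD59, an inhibitor of the membrane attack complex of complement, had 1 transcript that moved in opposite directions under the 2 agents. It had 0.25 and 0.31 TPM at 8 dpa against 2.79 and 6.27 TPM at 3 dpa with MS-275, but 42.6 and 50.3 TPM at 8 dpa against 1.16 and 1.76 TPM at 3 dpa with DMSO. At 0 dpa it had 24.02 and 20.03 TPM, so that with MS-275 it was below the homeostatic level on both days. The log2 change with MS-275 was -3.50 ± 0.38 (adjusted p = 0.0436), and the difference from the change with DMSO was -8.42 (adjusted p = 0.00243, and 0.00774 with rescaled TPM). Another transcript of CD59, the more abundant in these libraries, was level, with means of 18.2 TPM at 8 dpa and 15.7 TPM at 3 dpa with MS-275 (adjusted p = 0.702). DDB_G0268948, a transcript named after a Dictyostelium gene, showed the same opposition, with 1.61 and 2.10 TPM at 8 dpa against 31.0 and 87.5 TPM at 3 dpa with MS-275, and 13.1 and 14.0 TPM at 8 dpa against 0.60 and 0.28 TPM at 3 dpa with DMSO. Its log2 change with MS-275 was -4.75 (adjusted p = 0.0436). In the epidermis the called CD59 transcript had the same order of days. It had 13.0 and 5.36 TPM there at 8 dpa against 27.7 and 28.1 TPM at 3 dpa with MS-275. With DMSO it had 470 and 604 TPM against 63.55 and 46.0 TPM. DDB_G0268948 was abundant there too, with 105 and 200 TPM at 8 dpa against 287 and 130 TPM at 3 dpa with MS-275. With DMSO it had 167 and 192 TPM against 16.4 and 112 TPM.

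The 2 paired transcripts that rose had small spreads. PPDPFL had 32.4 and 37.1 TPM at 8 dpa against 10.7 and 10.9 TPM at 3 dpa with MS-275, a 3.22-fold rise (log2 change 1.67 ± 0.17, adjusted p = 0.0386). With DMSO it had 18.1 and 17.2 TPM at 8 dpa against 21.7 and 23.9 TPM at 3 dpa. At 0 dpa it had 36.9 and 45.5 TPM, so in TPM as deposited the 8 dpa MS-275 level was the closer to that of homeostatic tissue. The CAST transcript, which codes for the calpain inhibitor calpastatin, had 1.45 and 1.38 TPM at 8 dpa and was listed at 0 in both 3 dpa MS-275 libraries (adjusted p = 0.0386), while the 2 DMSO groups and 0 dpa lay between 0.51 and 2.59 TPM.

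The other 24 calls had no symbol. The 2 with the smallest adjusted p among those that fell were listed at 0 in both 8 dpa MS-275 libraries. GFZP01062136.1 had 6.69 and 5.03 TPM at 3 dpa with MS-275 and GFZP01178083.1 had 12.2 and 24.1 TPM (adjusted p = 0.00036 each), whereas both were present in all other ST libraries, the second at 49.1 to 84.9 TPM. With MS-275 the epidermis had the same order. The first had 0.27 and 0.89 TPM there at 8 dpa against 7.63 and 7.52 TPM at 3 dpa. The second had 0 and 0 TPM against 12.6 and 20.6 TPM. Among those that rose, GFZP01094286.1 had 2.07 and 2.79 TPM at 8 dpa and was listed at 0 at 3 dpa (adjusted p = 0.00294), and GFZP01042706.1 had 33.8 and 26.8 TPM against 4.92 and 4.05 TPM (adjusted p = 0.0373). Of the 23 that fell, 6 were listed at 0 in both 8 dpa libraries, and of the 9 that rose, 6 were listed at 0 in both 3 dpa libraries.

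**Figure D1:**
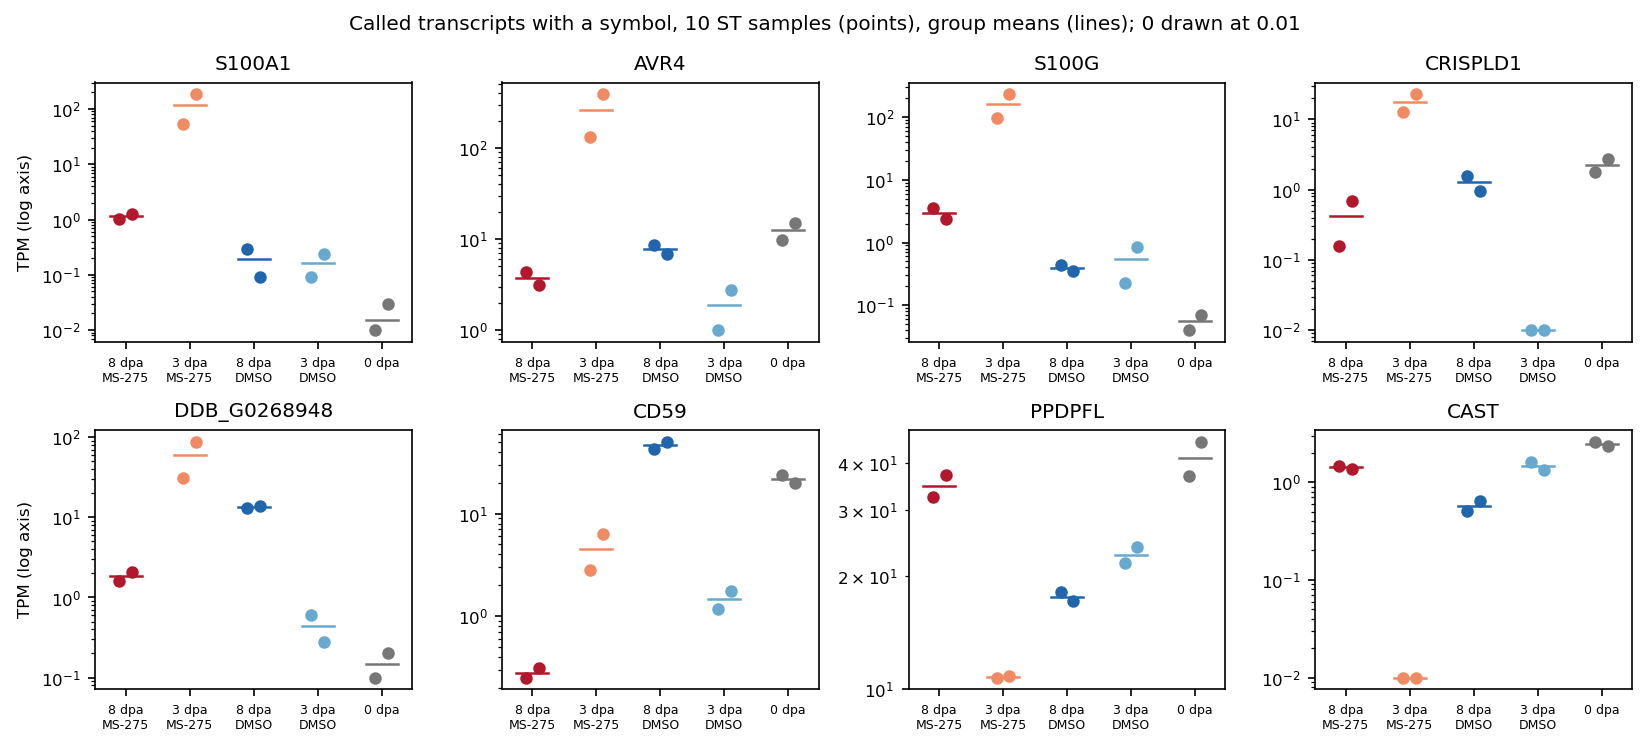
TPM on a log axis of the 8 called transcripts with a symbol in the 10 ST samples, by group, with points for samples and lines for group means; values of 0 are drawn at 0.01. Both 3 dpa MS-275 samples lie above both 8 dpa MS-275 samples for S100A1, AVR4, S100G, CRISPLD1, DDB_G0268948 and CD59, and below them for PPDPFL and CAST.

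None of these 8 symbol calls remained without replicate 2 at 3 dpa with MS-275, where 11 transcripts were called in all, and none remained with rescaled TPM or without any 1 of the 8 dpa MS-275 or DMSO replicates. Without 3 dpa MS-275 replicate 1, 6 of the 8 remained, and without either 0 dpa replicate 1 remained. Of the 23 transcripts that fell, 21 were higher in replicate 2 than in replicate 1 at 3 dpa. At 0 dpa 14 had at least 10 times the level in the epidermis that they had in the ST, a property of 9.05% of all transcripts tested. This ratio had no minimum level, so it also held for transcripts near 0 in both tissues. S100G had means of 0.91 TPM in the epidermis and 0.055 TPM in the ST, and GFZP01079129.1 had 0.09 and 0 TPM. Leaving all transcripts with this ratio out before the fit removed those 14 and 1 of the 9 calls that rose. The refit gave 7 calls.

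Epidermal genes had the lowest medians of the 31 gene lists at 8 dpa against 3 dpa with MS-275. Of 32 keratinocyte markers (keratins, desmosomal and cornified envelope proteins), 28 were lower in both 8 dpa than in both 3 dpa libraries and 1 was higher, against 27.9% lower and 34.4% higher among the 3485 symbols paired with a tested transcript, and 21.1% and 22.1% among all transcripts. Their median log2 change was -3.33 with MS-275 and 1.79 with DMSO, beside medians of 0.06 and 0.45 over the paired symbols. With rescaled TPM the DMSO medians were 1.3 for the list and -0.07 for the paired symbols. The shares and medians over the paired symbols are the background for the counts and medians of each list below. None of the 32 passed the adjusted threshold with MS-275, and 27 had an unadjusted p under 0.05. The change differed from that with DMSO for 17 of the 32, and for 6 of them with rescaled TPM, beside 244 and 33 of the 3485 paired symbols in that direction.

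KRT17, a keratin of stressed and wounded epidermis, had 4.00 and 1.27 TPM at 8 dpa against 49.1 and 289 TPM at 3 dpa with MS-275 (log2 change -5.65, adjusted p = 0.0821). With DMSO it had 39.0 and 34.2 TPM at 8 dpa against 0.44 and 0.44 TPM at 3 dpa, so the order of the days was turned round between the agents. TGM3, a transglutaminase that crosslinks the cornified envelope and the most abundant marker over the 4 MS-275 libraries, had 13.0 and 16.5 TPM at 8 dpa against 381 and 1104 TPM at 3 dpa (log2 change -5.46, adjusted p = 0.0872). KRT75, KRT42 and KRT12 had log2 changes of -4.06, -4.69 and -4.20 in the same order of groups, with adjusted p of 0.0999, 0.129 and 0.106. CNFN, a cornified envelope component, was the exception among the abundant markers, with 258 and 257 TPM at 8 dpa against 207 and 214 TPM at 3 dpa with MS-275, and means of 257 TPM and 208 TPM with DMSO.

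The secretory epidermal markers had the same order. Of 15 measured, 13 were lower at 8 dpa without overlap and 1 was higher. Their median log2 change was -1.87 with MS-275 and 2.26 with DMSO (1.75 with rescaled TPM). MSLN, the cell surface protein mesothelin, had 0.07 and 0.22 TPM at 8 dpa against 3.75 and 8.50 TPM at 3 dpa with MS-275 (adjusted p = 0.0648). AGR2-A, a disulfide isomerase of mucus-secreting cells, had 24.1 and 19.4 TPM against 71.8 and 164 TPM (adjusted p = 0.142). CAPN9 stood apart from them, at 12.9 and 17.6 TPM against 17.8 and 15.3 TPM.

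The level of these markers can be set against that of the epidermis itself. The summed keratinocyte markers in the ST came to 3.74% and 3.84% of the mean sum in the epidermis of the same group at 8 dpa with MS-275, against 11.5% and 30.4% at 3 dpa with MS-275. With DMSO these shares were 9.47% and 9.08% at 8 dpa against 3.32% and 4.96% at 3 dpa, and at 0 dpa they were 4.82% and 6.20%. Abundant markers such as CNFN weigh most in these sums. The median share per marker was 1.48% and 1.97% at 8 dpa against 11.9% and 30.9% at 3 dpa with MS-275. With DMSO it was 6.43% and 6.45% against 0.267% and 2.06%, and at 0 dpa 3.91% and 8.2%. Replicate 2 at 3 dpa with MS-275 exceeded replicate 1 in 30 of the 32 markers. Without replicate 2 the median log2 change of the list was -2.72, and without replicate 1 it was -3.88. Whether epidermal tissue in the dissected stump contributed to these values, and to the calls above, was not tested.

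**Figure D2:**
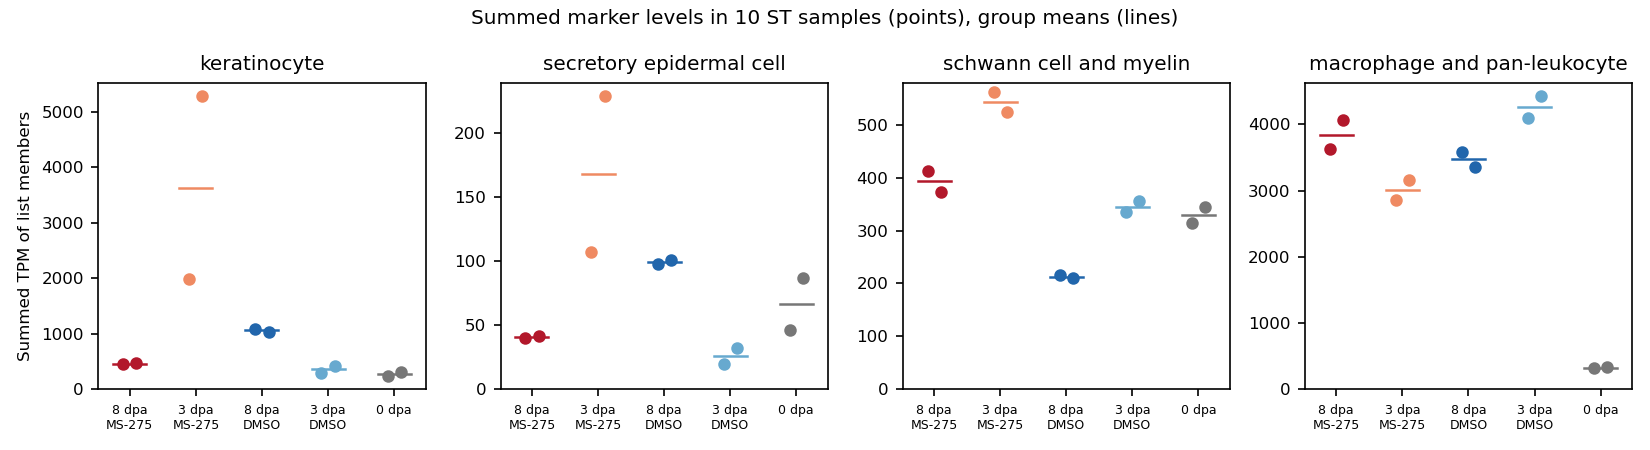
Summed TPM of the members of 4 marker lists in the 10 ST samples, by group, with points for samples and lines for group means, on linear axes from 0. The keratinocyte sums were 459 and 471 TPM at 8 dpa with MS-275 against 1990 and 5274 TPM at 3 dpa with MS-275.

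Other transcripts also had large falls in level with MS-275, and the rule that chose them fixed their lower level at 8 dpa. By size of change among paired symbols with a mean of at least 1 TPM, an unadjusted p under 0.05 and no overlap, the 12 lowest were ENDOU, S100A1, AVR4, KRT17, S100G, TGM3, CRISPLD1, PPE24, KLF18, DDB_G0268948, KRT42 and ENAM. ENDOU, an endoribonuclease of differentiated epithelia, was listed at 0 in both 8 dpa libraries and had 9.29 and 21.5 TPM at 3 dpa with MS-275 (adjusted p = 0.0882). ENAM, named after the enamel protein enamelin, had 0.09 and 0.07 TPM against 4.01 and 4.80 TPM (adjusted p = 0.0728) and was an epidermal transcript, with 27.2 and 23.5 TPM in the epidermis at 0 dpa. KLF18, like S100A1 and S100G, was near 0 in the 0 dpa epidermis, which held no more than 0.39 TPM of it. In the ST it had 0.06 and 0.03 TPM at 8 dpa against 1.91 and 7.43 TPM at 3 dpa with MS-275 (adjusted p = 0.0728). The epidermis had the same order with MS-275, with 0.02 and 0 TPM at 8 dpa against 2.01 and 5.64 TPM at 3 dpa.

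Schwann cell and myelin genes formed a second group with lower levels at 8 dpa. Of 10 members, 8 were lower without overlap and 1 was higher, with a median log2 change of -1.48 with MS-275 and 0.50 with DMSO (0.07 with rescaled TPM). The summed level of the list was lower at 8 dpa with both agents, unlike the DMSO median. It was 413 and 374 TPM against 562 and 524 TPM with MS-275, and 217 and 209 TPM against 335 and 355 TPM with DMSO. The sum was not particular to the stump. In the epidermis it was 964 and 1742 TPM at 8 dpa against 750.5 and 725 TPM at 3 dpa with MS-275. With DMSO the epidermis had 740 and 741 TPM against 739 and 1323 TPM. Only at 0 dpa was the epidermis the lower, at 245 and 178 TPM against 315 and 345 TPM in the ST. MBP, a protein of compact myelin, had 30.6 and 10.2 TPM at 8 dpa against 91.4 and 84.4 TPM at 3 dpa with MS-275 (log2 change -2.31, adjusted p = 0.11). At 0 dpa it had 70.2 and 88.4 TPM, close to the 3 dpa MS-275 level in TPM as deposited, which leaves out the different scale of the 0 dpa libraries. With DMSO it was 14.2 and 14.5 TPM at 8 dpa against 26.7 and 24.1 TPM at 3 dpa. PMP22, another myelin protein, had 17.6 and 13.4 TPM against 39.1 and 27.8 TPM with MS-275 (adjusted p = 0.172). PMP2, a fatty acid binding protein of myelin and the most abundant member, had 335 and 328 TPM against 369 and 357 TPM.

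Basement membrane genes were the third such group, with 14 of 17 lower at 8 dpa without overlap and none higher. Their median log2 change was -0.85 with MS-275 and 1.32 with DMSO (0.77 with rescaled TPM). The change differed between the agents for 7 of 17, and for none of them with rescaled TPM. LAMB1, a laminin chain, had 15.3 and 13.0 TPM at 8 dpa against 27.2 and 20.6 TPM at 3 dpa with MS-275 (adjusted p = 0.201), while with DMSO it rose to 37.5 and 36.2 TPM at 8 dpa, against 8.39 and 8.89 TPM at 3 dpa (adjusted p = 0.00832). COL4A2, a chain of the network-forming type IV collagen, had 7.45 and 5.36 TPM against 21.8 and 17.6 TPM with MS-275 (log2 change -1.62, adjusted p = 0.0922).

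The interstitial matrix was near level between 8 and 3 dpa with MS-275, whereas it rose with DMSO. The 16 fibrillar and associated collagens had a median log2 change of -0.10 with MS-275, with 0 higher and 7 lower without overlap, against 2.15 with DMSO (1.60 with rescaled TPM), where 13 passed the adjusted threshold, 4 of them with rescaled TPM. Among 33 matrix glycoproteins and proteoglycans the medians were -0.11 with MS-275 and 1.89 with DMSO (1.34 with rescaled TPM). Of these, 22 rose with DMSO at the adjusted threshold, and 6 with rescaled TPM. The 15 genes of collagen processing had medians of 0.06 with MS-275 and 1.46 with DMSO (0.91 with rescaled TPM). None of these genes passed with MS-275. The paired symbols were themselves taken from the study's calls in control samples of the ST and of the epidermis. Their counts with DMSO, at 15.4% risen and 1.72% fallen over all 3485, are therefore not independent evidence of a rise.

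COL1A1, a chain of the main fibrillar collagen, had 1541 and 1200 TPM at 8 dpa against 1482 and 1203 TPM at 3 dpa with MS-275. With DMSO it rose to 2249 and 2314 TPM at 8 dpa, against 458 and 857 TPM at 3 dpa (log2 change 1.86, adjusted p = 0.0465). The 2 MS-275 groups thus lay above the 3 dpa and below the 8 dpa DMSO libraries, and their log2 change was 0.03 ± 0.35. COL1A2 changed as little (0.04 ± 0.34), and COL3A1 had 885 and 715 TPM at 8 dpa against 1190 and 999 TPM at 3 dpa with MS-275 (-0.46 ± 0.32, adjusted p = 0.65). The difference between agents passed for none of these 3 collagens. FN1, which codes for fibronectin, had 182 and 157 TPM at 8 dpa against 225 and 156 TPM at 3 dpa with MS-275, but rose with DMSO to 463 and 466 TPM, against 57.5 and 96.2 TPM at 3 dpa. For FN1 the difference of the changes was -2.79 (adjusted p = 0.04, but 0.124 with rescaled TPM). LUM and DCN, small leucine-rich proteoglycans of connective tissue, changed by 0.11 and 0.02 on the log2 scale with MS-275.

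KAZALD1, a secreted protein known in the axolotl as a blastema gene, was the most abundant member of the matrix list. It had 1033 and 1102 TPM at 8 dpa against 774 and 518 TPM at 3 dpa with MS-275, and 10.8 and 15.7 TPM at 0 dpa. The 8 dpa libraries stood above the 3 dpa ones, but the log2 change of 0.75 ± 0.27 did not pass (adjusted p = 0.321). With DMSO it rose to 1194 and 1168 TPM at 8 dpa, against 343 and 297 TPM at 3 dpa.

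Cartilage genes had a positive median with MS-275, 0.56 on the log2 scale over 15 members, of which 7 were higher and 1 lower without overlap. This median was -0.08 without replicate 2 at 3 dpa. With DMSO the median was 2.71 (2.18 with rescaled TPM). ACAN, the large proteoglycan aggrecan, had 217 and 333 TPM at 8 dpa against 112 and 82.6 TPM at 3 dpa with MS-275 (log2 change 1.48, adjusted p = 0.18), and 104 and 95.1 TPM against 81.0 and 177 TPM with DMSO, where the days overlapped. COL2A1, the fibrillar collagen of cartilage, had 3.90 and 6.46 TPM against 5.90 and 2.06 TPM with MS-275, while with DMSO it rose to 11.1 and 13.1 TPM, against 0.47 and 0.61 TPM.

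**Figure D3:**
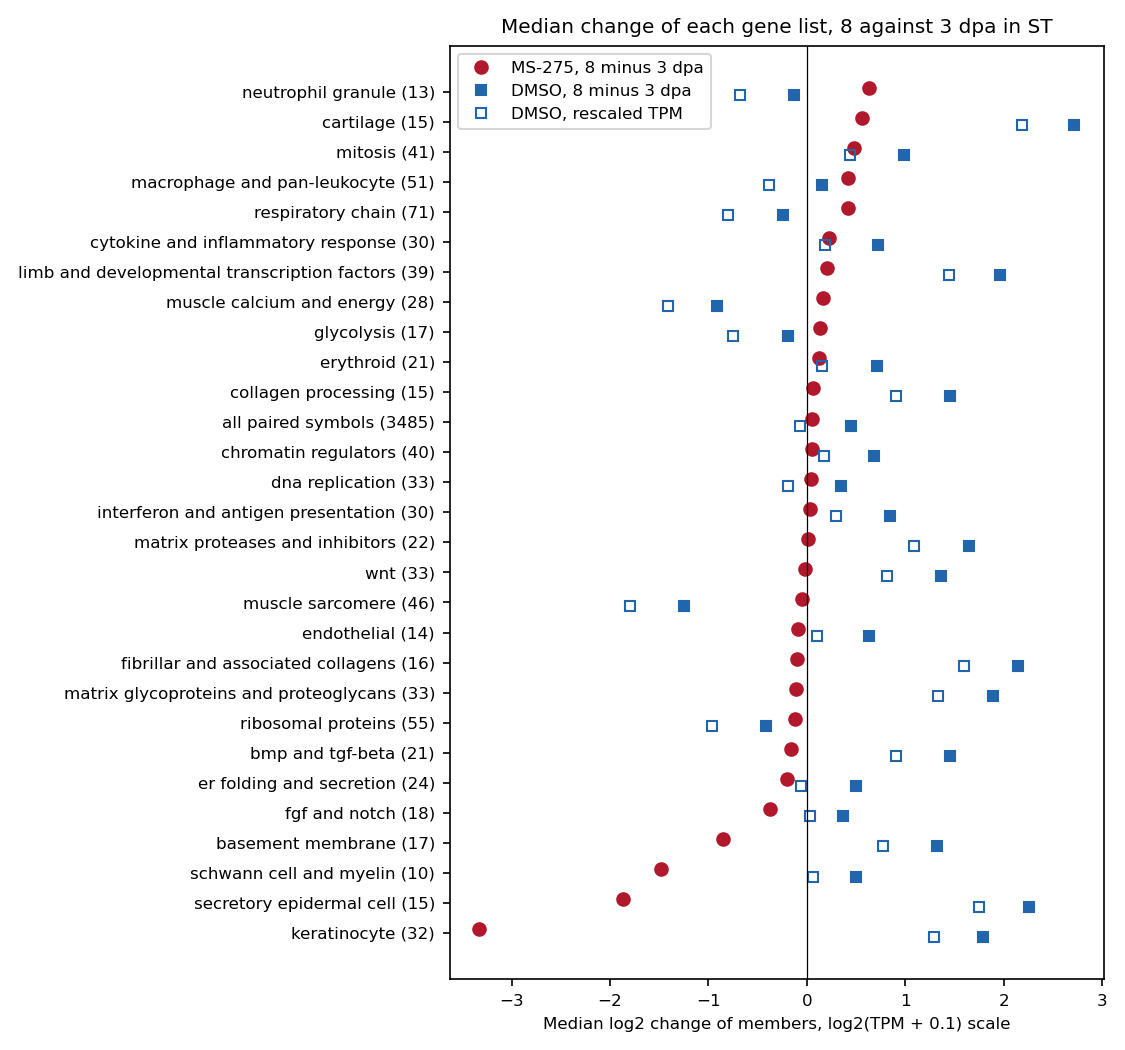
Median log2 change of the members of each gene list between 8 and 3 dpa in ST, with the number of members tested in brackets, for MS-275 (filled circles), DMSO (filled squares) and DMSO with rescaled TPM (open squares). With MS-275 most lists lie near 0, and the 4 lowest medians of the lists drawn, which leave out the study's own gene sets, are keratinocyte at -3.33, secretory epidermal cell at -1.87, schwann cell and myelin at -1.48 and basement membrane at -0.85.

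CTSK, the collagen-degrading cathepsin of osteoclasts, had the largest positive change of the matrix protease list, with 538 and 796 TPM at 8 dpa against 95.9 and 32.5 TPM at 3 dpa with MS-275 (log2 change 3.55 ± 0.61, adjusted p = 0.0999). With DMSO it rose to 1515 and 1410 TPM at 8 dpa, against 73.9 and 233 TPM at 3 dpa (log2 change 3.48, adjusted p = 0.0364), and both agents were far above the 5.34 and 6.08 TPM of 0 dpa. DCSTAMP and OCSTAMP, membrane proteins needed for the fusion of osteoclast precursors, were also among the 12 largest positive changes, were picked out after their values were seen, and belong to no list tested. DCSTAMP had 1.64 and 3.85 TPM against 0.17 and 0.22 TPM (adjusted p = 0.0922), and OCSTAMP had 2.35 and 4.41 TPM against 0.37 and 0.67 TPM (adjusted p = 0.109). SLC4A2, an anion exchanger that osteoclasts also use, had 1.49 and 3.37 TPM against 0.32 and 0.19 TPM (adjusted p = 0.131). The difference from the change with DMSO did not pass for any of these 4.

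The other proteases were more even. MMP9, a gelatinase, had 463 and 546 TPM at 8 dpa against 175 and 232 TPM at 3 dpa with MS-275 (adjusted p = 0.305), and MMP13, a collagenase, had 115 and 154 TPM against 72.1 and 44.8 TPM (adjusted p = 0.291). With DMSO, MMP13 rose to 335 and 310 TPM, against 22.1 and 33.4 TPM. MMP2, another gelatinase, had 124 and 118 TPM against 205 and 125 TPM with MS-275. TIMP1, an inhibitor of these enzymes, had 637 and 761 TPM against 497 and 709 TPM with MS-275 and was lower on both days with DMSO, at 189 and 181 TPM against 207 and 238 TPM. Over the 22 proteases and inhibitors the median log2 change was 0.01 with MS-275 and 1.64 with DMSO (1.09 with rescaled TPM).

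Leukocyte genes were higher at 8 dpa with MS-275 by a small margin. Of 51 macrophage and pan-leukocyte markers, 39 were higher without overlap and 1 was lower, none passed the adjusted threshold, and 17 had an unadjusted p under 0.05, all of them higher. Their median log2 change was 0.42 with MS-275, between 0.36 and 0.53 with each of the 4 libraries left out in turn, against 0.16 with DMSO (-0.39 with rescaled TPM). LYZ, which codes for lysozyme, had 1452 and 1630 TPM at 8 dpa against 1210 and 1385 TPM at 3 dpa with MS-275. C1QC, a complement component made by macrophages, had 254 and 297 TPM against 234 and 191 TPM. MARCO, a scavenger receptor, had 217 and 229 TPM against 192 and 235 TPM, where the days overlapped.

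Of 13 genes of neutrophil granules, 8 were higher and 3 lower without overlap, with a median of 0.63. IL1R2, the decoy receptor of interleukin 1, was among the lower, with 71.4 and 59.6 TPM at 8 dpa against 122 and 138 TPM at 3 dpa with MS-275. CATHL3, an antimicrobial cathelicidin, had 108 and 136 TPM at 8 dpa against 47.1 and 70.6 TPM at 3 dpa with MS-275, and LECT2, a chemotactic factor, had 85.8 and 98.7 TPM against 45.9 and 55.8 TPM (adjusted p = 0.423 and 0.32). CCR3, a receptor for eotaxins, was among the 12 largest positive changes, with 12.2 and 18.3 TPM against 3.57 and 3.13 TPM (adjusted p = 0.112). CCL24, 1 of the eotaxins, had 93.6 and 126 TPM against 58.1 and 45.3 TPM (adjusted p = 0.312). Over the 30 cytokine and inflammatory genes the median was 0.23 with MS-275, and HMOX1, the enzyme that breaks down haem, had 374 and 358 TPM against 212 and 312 TPM, and TNFAIP6, a hyaluronan-binding protein, had 94.3 and 84.1 TPM against 99.5 and 104 TPM. Interferon and antigen presentation genes had a median of 0.03.

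Muscle genes had no common direction with MS-275. Of 46 sarcomere genes, 15 were higher and 17 lower at 8 dpa without overlap, beside the 34.4% and 27.9% of all paired symbols. At an unadjusted limma p under 0.05, 2 were higher and 8 lower, beside 383 and 368 of the 3485 paired symbols. Their median was -0.05, against -1.25 with DMSO (-1.80 with rescaled TPM). With DMSO 6 fell and none rose at the adjusted threshold, and none passed with rescaled TPM. ACTA1, skeletal muscle actin, had 423 and 444 TPM at 8 dpa against 92.9 and 74.7 TPM at 3 dpa with MS-275 (log2 change 2.38 ± 0.39, adjusted p = 0.0963). With DMSO it fell to 182 and 173 TPM at 8 dpa, against 1179 and 544 TPM at 3 dpa (adjusted p = 0.0385), and the difference of the changes was 4.55 (adjusted p = 0.0225, and 0.0478 with rescaled TPM).

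TNNI2 and TNNT3, troponins of fast muscle, were also higher at 8 dpa with MS-275, with 1513 and 1574 TPM against 891 and 830 TPM for TNNI2 and 1243 and 1101 TPM against 706 and 667 TPM for TNNT3. MYL2, a myosin light chain of slow and cardiac muscle, had the other order, with 400 and 554 TPM at 8 dpa against 1824 and 1141 TPM at 3 dpa (adjusted p = 0.198). Of 28 genes of muscle calcium handling and energy supply, 13 were higher and 5 lower at 8 dpa without overlap. Their median was 0.16 with MS-275 and -0.91 with DMSO (-1.41 with rescaled TPM). Their summed level was 4801 and 4184 TPM at 8 dpa against 2573 and 2022 TPM at 3 dpa with MS-275. CKM, ENO3 and PYGM, enzymes of energy supply in muscle, had log2 changes of 0.98, 1.10 and 1.32 with MS-275 and of -2.18, -2.04 and -1.58 with DMSO, none of which passed. TUBA4A and HSPB11, both of them transcripts lower at 8 than at 3 dpa with DMSO, had higher levels at 8 dpa with MS-275. TUBA4A, an alpha tubulin, had 4.92 and 4.89 TPM against 0.47 and 1.13 TPM, and HSPB11 had 50.2 and 73.1 TPM against 12.4 and 14.5 TPM. The summed sarcomere list came to 19220 and 8013 TPM at 3 dpa with DMSO, so that the DMSO side of these differences had a wide spread, against 7006 and 7307 TPM at 8 dpa and 7021 and 5487 TPM at 3 dpa with MS-275.

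**Figure D4:**
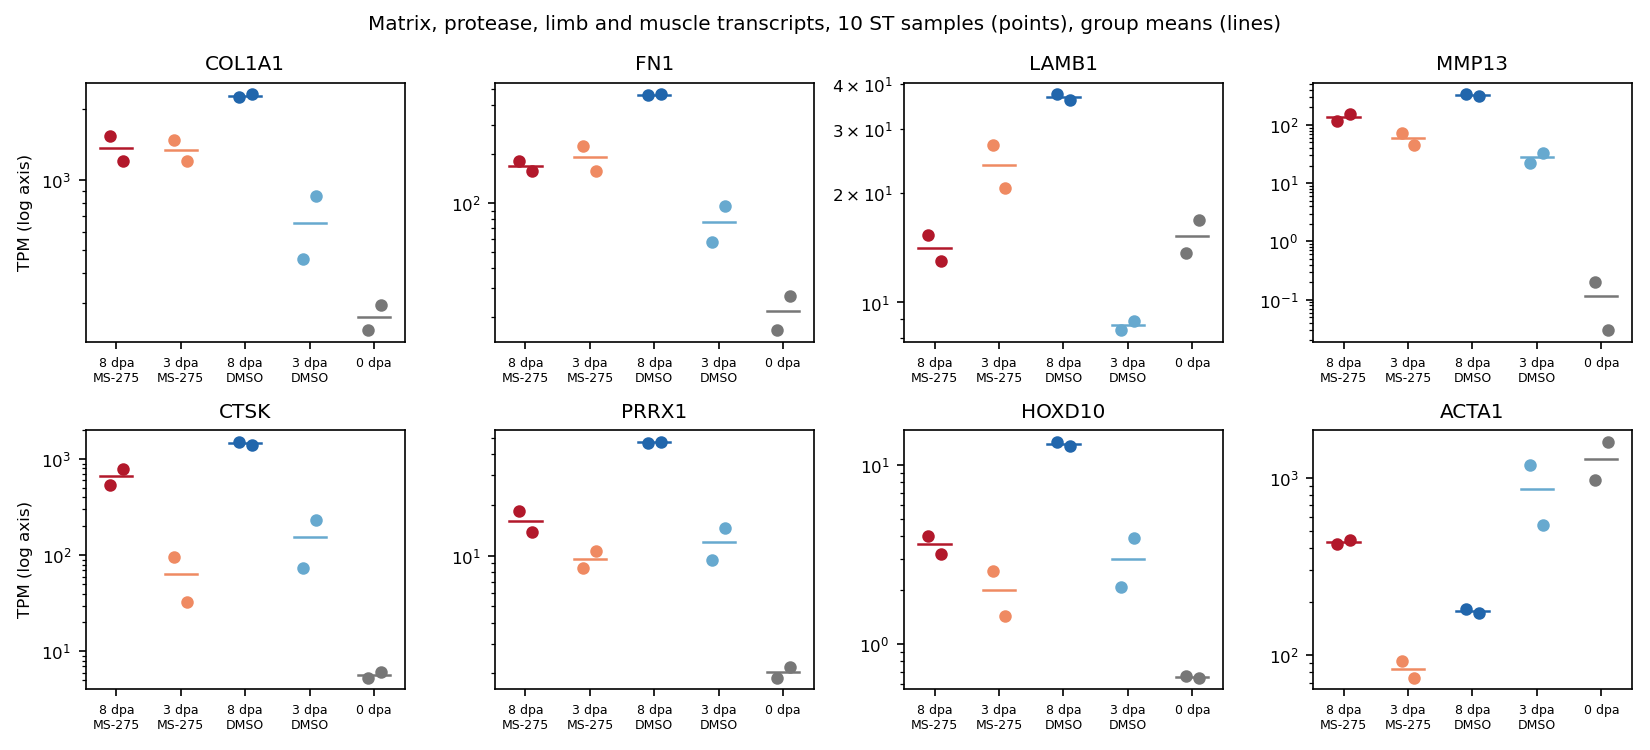
TPM on log axes of COL1A1, FN1, LAMB1, MMP13, CTSK, PRRX1, HOXD10 and ACTA1 in the 10 ST samples, by group, with points for samples and lines for group means. COL1A1 and FN1 overlap between 8 and 3 dpa with MS-275 and are higher at 8 than at 3 dpa with DMSO, and ACTA1 stands at 423 and 444 TPM at 8 dpa against 92.9 and 74.7 TPM at 3 dpa with MS-275.

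Transcription factors of the developing limb had a small positive median change with MS-275. Of 39 measured, 19 were higher and 6 lower without overlap, beside 34.4% and 27.9% of all paired symbols. Their median log2 change was 0.20, against 1.96 with DMSO (1.44 with rescaled TPM). Their summed level was 138 and 130 TPM at 8 dpa against 120 and 102 TPM at 3 dpa with MS-275. None passed with MS-275, 27 passed with DMSO (1 with rescaled TPM), and the difference passed for 1. PRRX1, a homeobox factor of limb mesenchyme, had 18.3 and 13.7 TPM at 8 dpa against 8.41 and 10.7 TPM at 3 dpa with MS-275 (adjusted p = 0.309), and 46.4 and 47.3 TPM against 9.39 and 14.6 TPM with DMSO. At 3 dpa the 2 agents overlapped, and at 8 dpa the MS-275 libraries were the lower. HOXD10, a homeobox factor that patterns the limb along its length, had 4.01 and 3.19 TPM against 2.57 and 1.43 TPM with MS-275 and 13.4 and 12.7 TPM against 2.08 and 3.92 TPM with DMSO. HOXA10, HOXA11 and SOX9, the master factor of cartilage, had log2 changes of 0.48, 0.43 and 0.63 with MS-275, and of 2.55, 1.94 and 2.22 with DMSO. SNAI1, a factor of epithelial to mesenchymal transition, was the most abundant member, at 44.9 and 46.3 TPM against 43.6 and 35.9 TPM with MS-275.

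Signalling genes had small median changes. The medians with MS-275 were -0.02 over 33 Wnt genes, -0.16 over 21 BMP and TGF-beta genes and -0.37 over 18 FGF and Notch genes. With DMSO they were 1.37, 1.46 and 0.37, and with DMSO and rescaled TPM 0.81, 0.905 and 0.04. Without overlap, 9 Wnt genes were lower and 5 higher, 7 BMP and TGF-beta genes were lower and 7 higher, and 8 FGF and Notch genes were lower and none higher, 6 of these with an unadjusted p under 0.05. Over all paired symbols 27.9% were lower and 34.4% higher without overlap. None of the 72 passed the adjusted threshold with MS-275. CTNNB1, the beta-catenin of the Wnt pathway, had 40.5 and 52.4 TPM at 8 dpa against 59.8 and 55.8 TPM at 3 dpa with MS-275, but rose with DMSO to 97.2 and 89.6 TPM, against 29.2 and 34.0 TPM. SFRP2, a secreted modulator of Wnt ligands, had 175 and 156 TPM against 221 and 139 TPM with MS-275. TGFB1, the ligand, was higher at 8 dpa, at 40.9 and 36.0 TPM against 29.0 and 27.2 TPM (log2 change 0.45 ± 0.15, adjusted p = 0.292). TGFBI, a matrix protein induced by it, had 633 and 615 TPM against 591 and 379 TPM, and CTGF, another such target, 26.3 and 20.1 TPM against 29.0 and 36.5 TPM. NOTCH2, a receptor, had 5.49 and 5.72 TPM against 5.82 and 5.19 TPM with MS-275 and 12.6 and 12.3 TPM against 2.59 and 2.88 TPM with DMSO, where it rose (adjusted p = 0.00677). FGFR1, a receptor of fibroblast growth factors, changed by 0.03 with MS-275. FGFBP1, a carrier of these factors, had 3.99 and 6.15 TPM against 10.5 and 23.9 TPM (adjusted p = 0.199). Of the genes given here as risen or fallen with DMSO, COL2A1, MMP13 and NOTCH2 also passed with rescaled TPM, whereas COL1A1, FN1, LAMB1, KAZALD1, CTSK, CTNNB1 and ACTA1 did not.

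The genes that the study singles out for an altered time course with MS-275 had lower median changes than with DMSO. The genes taken here are ones named in its text, not its full sets. Of 23 genes named there as passing from its pattern 4 to its pattern 5, 19 were paired with a transcript. Their median log2 change was 0.28 with MS-275 and 2.15 with DMSO (1.62 with rescaled TPM). With MS-275, 8 were higher and none lower without overlap. COL12A1, a collagen of tendon and of the fracture site, had 65.9 and 88.4 TPM at 8 dpa against 82.2 and 48.1 TPM at 3 dpa with MS-275. Of 22 genes named as passing to pattern 6, 14 were paired, with medians of -0.04 with MS-275 and 1.90 with DMSO (1.35 with rescaled TPM). Their members PTK7 and LAMA1, a Wnt co-receptor and a laminin chain, changed by -0.07 and -0.15 with MS-275, and COL5A1 by -0.24. Of 9 genes taken from those named as passing to pattern 7, 4 were paired, 3 of them lower and 1 higher with MS-275 without overlap. Their medians were -0.92 with MS-275 and 1.93 with DMSO (1.48 with rescaled TPM). BMP7, a bone morphogenetic protein, had 1 and 1.2 TPM against 1.51 and 2.03 TPM with MS-275. The study chose these genes for their pattern in these libraries, so their levels are a description.

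Genes of cell division and of mitochondria were higher at 8 dpa with MS-275. Of 41 mitosis genes, 35 were higher without overlap and none lower, with a median log2 change of 0.48, against 0.99 with DMSO (0.44 with rescaled TPM). None passed the adjusted threshold with MS-275, and 8 had an unadjusted p under 0.05. KPNA2, an importin of dividing cells, had 74.0 and 88.7 TPM at 8 dpa against 54.7 and 42.1 TPM at 3 dpa, CDK1-B, the kinase that drives entry into mitosis, 23.4 and 35.4 TPM against 16.1 and 12.1 TPM, and HMGB2, a chromatin protein, 474 and 474 TPM against 389 and 412 TPM. Genes of DNA replication did not share this, with 9 higher and 12 lower of 33, beside 34.4% and 27.9% of all paired symbols, and a median of 0.04. PCNA, the clamp of the replication fork, had 78.4 and 95.8 TPM against 96.1 and 73.4 TPM, and RPA3 and PCLAF, 2 other replication factors, changed by 0.33 and -0.20.

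Of 71 subunits of the respiratory chain and ATP synthase, 60 were higher without overlap and none was lower, with a median of 0.41 with MS-275, between 0.34 and 0.52 with each of the 4 libraries left out in turn. With DMSO the median was -0.24 (-0.80 with rescaled TPM), with 46 lower and 7 higher without overlap. Beside these stand 670 lower and 1997 higher of the 3485 paired symbols, and 8.98% and 45.0% of all transcripts. None passed the adjusted threshold with MS-275, and 28 had an unadjusted p under 0.05. ATP5ME, a subunit of ATP synthase, had 1246 and 1538 TPM at 8 dpa against 908 and 703 TPM at 3 dpa with MS-275, and ATP5MC3, another, 923 and 945 TPM against 626 and 568 TPM. ALDOA, an enzyme of glycolysis, had 1184 and 1270 TPM against 407 and 419 TPM (log2 change 1.57, adjusted p = 0.163), and GAPDH 4821 and 4668 TPM against 2927 and 2866 TPM. Over the 17 genes of glycolysis the median was 0.13, with 8 higher and none lower. The muscle energy genes named above had the same order of groups, and a contribution of muscle tissue to these values was not tested.

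**Figure D5:**
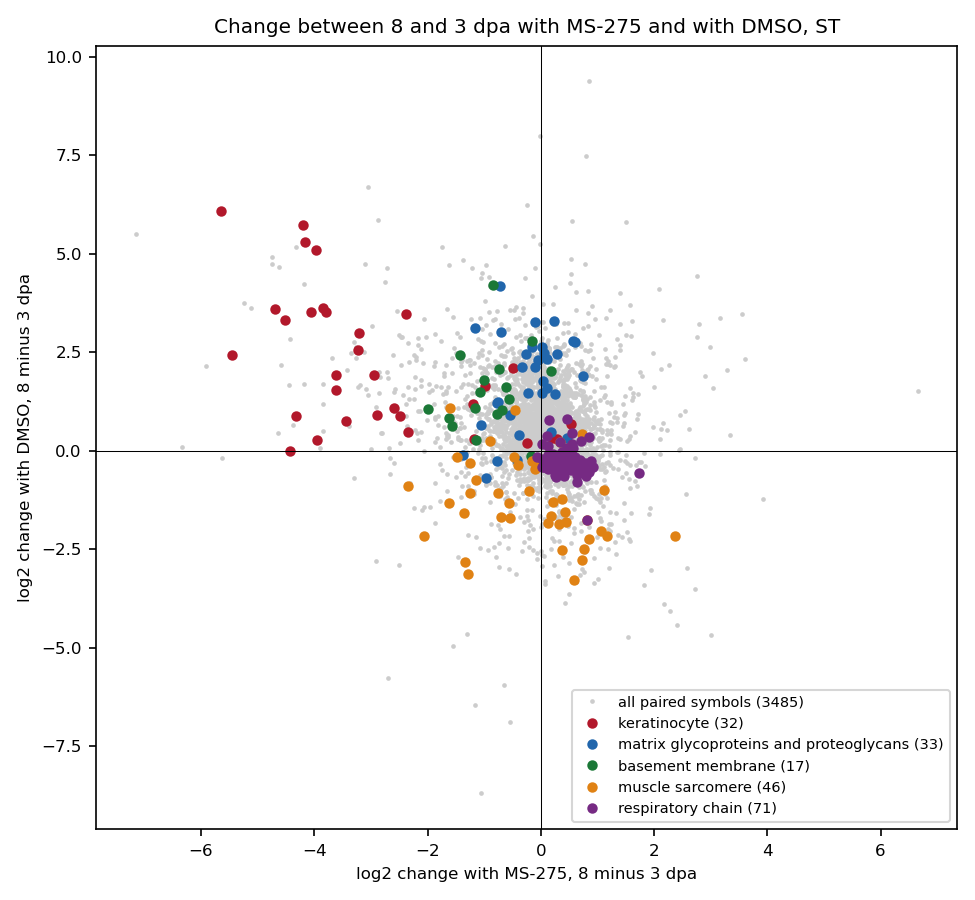
Log2 change between 8 and 3 dpa in ST with MS-275 (horizontal) and with DMSO (vertical) for 3485 paired symbols, each point a transcript, with 5 gene lists in colour. Keratinocyte genes lie mostly to the left of 0 and mostly above 0. Matrix glycoproteins lie mostly near 0 on the horizontal and above 0 on the vertical axis, and respiratory chain genes mostly to the right of 0.

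Among the remaining lists, 2 lists leaned lower. Of 55 ribosomal proteins, 25 were lower and 8 higher without overlap, with a median of -0.12. RPL36A was not among the lower, with 7960 and 8712 TPM at 8 dpa against 8166 and 6708 TPM at 3 dpa, where the days overlapped. Of 24 genes of protein folding and secretion, 12 were lower and 3 higher, with a median of -0.20, and CALR, the chaperone calreticulin, had 285 and 306 TPM against 449 and 426 TPM. Chromatin regulators had a median of 0.05, and HMGN2 and H2AFZ, a nucleosome-binding protein and a histone variant, changed by 0.64 and 0.35. Erythroid and endothelial genes had medians of 0.12 and -0.09. The globin HBB1 had 17684 and 13837 TPM against 11947 and 21853 TPM, and HBA had 6148 and 8867 TPM against 3357 and 4722 TPM. No member of these lists passed the threshold with MS-275.

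The 12 paired transcripts with the largest positive change, by the same rule as for the lowest, were MARCKS, CTSK, DCSTAMP, PCDHGC5, SLC4A2, TUBA4A, METTL7A, OCSTAMP, ACTA1, SH3BGR, HSPB11 and CCR3, none of which passed the adjusted threshold. The MARCKS transcript, which codes for a substrate of protein kinase C, had 10.6 and 9.44 TPM at 8 dpa and was listed at 0 in both 3 dpa MS-275 libraries (adjusted p = 0.0672). It was listed at 0 in 3 of the 4 DMSO libraries too, and had 10.02 and 8.72 TPM at 0 dpa. PCDHGC5, a gamma protocadherin, had 8.59 and 10.2 TPM against 3.90 and 0.36 TPM, METTL7A had 9.96 and 11.1 TPM against 1.26 and 2.30 TPM, and SH3BGR had 4.19 and 5.72 TPM against 0.62 and 1.48 TPM.

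The largest positive differences between the changes under the 2 agents came from transcripts that were near 0 with DMSO at 8 dpa. RPS20, a ribosomal protein, had 2201 and 526 TPM at 8 dpa against 2486 and 2001 TPM at 3 dpa with MS-275, but 4.23 and 11.1 TPM at 8 dpa against 2824 and 2928 TPM at 3 dpa with DMSO (difference 7.64, adjusted p = 0.0247). The epidermis had the same order for RPS20 with DMSO, at 3.94 and 9.75 TPM at 8 dpa against 3606 and 2638 TPM at 3 dpa. In the ST, the CMBL, MSL3 and FAM126A transcripts were listed at 0 in both 8 dpa DMSO libraries. On the negative side, SFTPC, named after a surfactant protein, had 0.52 and 0.14 TPM against 2.13 and 4.51 TPM with MS-275 and 37.0 and 37.4 TPM against 0.10 and 0.56 TPM with DMSO (difference -9.74, adjusted p = 0.0187). Each of these is 1 transcript of its gene, and reads shared between near-identical transcripts can be assigned to either.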

How the data were processed

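RNA was sequenced from 20 samples, and the 10 ST samples were analysed, the epidermis giving levels only. After trimming with cutadapt, the authors mapped reads to a transcriptome assembly by Bowtie2, estimated levels with RSEM and deposited TPM rounded to 2 decimals, which hold no counts, so depth and counting error are unknown. The labels and the methods name different library kits and units of the injected volume. The authors' voom step needs counts, so log2(TPM + 0.1) of the 10 ST samples was modelled in limma 3.58.1 (R 4.3.3) with 5 groups, an intensity trend in the prior and no block, for transcripts above 0 TPM in at least 5 samples. P-values were two-sided and adjusted over 87546 transcripts by the Benjamini-Hochberg method, with a threshold of 0.05. P-values measure the spread between pools of limbs. The fit was also run on simulated data with independent noise and no shift in the scale of the libraries. That run cannot address the dependence of the counts on this scale or on single replicates.

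Symbols came from shortened copies of the study's lists of control calls in the ST and in the epidermis (4722 tested transcripts, 3485 symbols). For a symbol the transcript with the highest mean TPM was used. Named genes were the called paired transcripts, the 12 largest changes each way (mean of at least 1 TPM, unadjusted p under 0.05, no overlap), abundant or called members of each list, genes named by the study, the 5 largest differences each way and up to 2 unpaired calls each way; not every gene the rule allows is given. Members and lists were chosen with earlier results of these data known. Lists were described by counts and medians, not tested. Alternatives were a pseudocount of 1, rescaled TPM, other filters, no trend, all 20 samples, the 4 MS-275 samples alone, a replicate block, sums over transcripts, no epidermis-high transcripts, and each replicate left out.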

Additional observations from a re-analysis of the deposited data

Results flagged for a closer look

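The change between 8 and 3 dpa differed between MS-275 and DMSO for 1084 transcripts by the interaction contrast (limma, adjusted p under 0.05), and for 40 of the named symbols. With rescaled TPM, 18 of these 40 passed, 9 of 30 with a lower and 9 of 10 with a higher change with MS-275. Values are log2 differences, MS-275 minus DMSO. For transcripts listed at 0 in a group they depend on the 0.1 TPM that was added. The paired symbols were taken from control calls, and the difference carries that choice.

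Passing on both scales on the lower side were KRT17 (-11.74), KRT12 (-9.93), SFTPC (-9.74), KLF18 (-9.67), DDB_G0268948 (-9.48), MSLN (-9.27), CRISPLD1 (-8.98), CD59 (-8.42) and AVR4 (-8.05). Passing on both scales on the higher side were CMBL (7.66), RPS20 (7.64), MSL3 (6.34), ARHGDIA (6.33), FAM126A (6.23), TUBA4A (5.56), CAST (5.14), ACTA1 (4.55) and PPDPFL (2.04), while HSPB11 (6.05) passed with TPM as deposited but not with rescaled TPM.

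Among keratinocyte and other transcripts with lower changes the difference passed with TPM as deposited but not with rescaled TPM for ENDOU (-12.65), PPE24 (-8.75), KRT42 (-8.28), TGM3 (-7.88), KRT75 (-7.58), S100A1 (-6.43), S100G (-5.44), ENAM (-5.11) and CAPN9 (-2.22). The same held for the matrix genes COL2A1 (-3.74), LAMA1 (-2.94), LAMB1 (-2.82), FN1 (-2.79), COL4A2 (-2.46), MMP2 (-2.34), COL5A1 (-2.09) and LAMC1 (-1.89), and for the signalling genes BMP7 (-3.03), PTK7 (-2.23), NOTCH2 (-2.12) and CTNNB1 (-1.89).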

How the results depend on the processing

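The count of calls with MS-275, 32 as reported, was 341 with a pseudocount of 1, 5 with rescaled TPM, 135 with transcripts above 0 TPM in any ST sample, 1658 with all 20 samples, 0 with the 4 MS-275 samples alone (limma, 11446 with an unadjusted p under 0.05) and 7 without epidermis-high transcripts. Leaving out each replicate gave 6 to 175 calls, the lowest without either 8 dpa DMSO replicate, with 175 and 170 without 3 dpa DMSO replicates 1 and 2, 63 and 11 without 3 dpa MS-275 replicates 1 and 2, 18 and 9 without 8 dpa MS-275 replicates 1 and 2, and 15 without either 0 dpa replicate. With DMSO the 1676 calls became 3971 (pseudocount of 1), 215 (rescaled TPM), 3261 (mean TPM of at least 1), 584 (no trend) and 5281 (all 20 samples), with 20 to 3467 when a replicate was left out. The difference of the changes, 1084 calls, became 2231 with a pseudocount of 1, 151 with rescaled TPM, 1668 with a mean TPM of at least 1, 398 with transcripts above 0 in any sample, 717 without the trend and 3920 with all 20 samples, with 11 to 2499 when a replicate was left out. No label ties replicate numbers to shared animals, and same-numbered samples did not deviate together (correlations of -0.05 with MS-275 and -0.02 with DMSO). The replicate block gave 9 calls with MS-275, 506 with DMSO and 497 for the difference. The fit of all 20 samples had no such block. Its counts treat epidermis and ST of the same animals as independent.

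All 8 symbol calls remained with all 20 samples, with 1 added to the TPM and with the mean filter, 1 without the trend, and none with rescaled TPM or with the replicate block. Without epidermis-high transcripts 1 remained, but that filter itself removed S100G, AVR4, CRISPLD1 and DDB_G0268948, which were not tested again. Of 31 lists, 16 had a median above 0 with MS-275, and 10 to 19 when a replicate was left out, the lowest without 3 dpa replicate 2. The direction with MS-275 turned in 29 values of the named genes and was kept in all other settings run for them. With transcripts summed, RPS20 was at 0.093 and HBB1 at 0.21, and DCN was at -0.003 with rescaled TPM. When a replicate was left out the log2 change ranged from -0.36 to 0.085 for CAPN9, -0.28 to 0.36 for COL11A1, -0.11 to 0.66 for COL12A1, -0.15 to 0.21 for COL1A1, -0.14 to 0.22 for COL1A2, -0.23 to 1.25 for COL2A1, -0.23 to 0.26 for DCN, -0.18 to 0.24 for FGFR1, -0.41 to 0.11 for FN1, -0.48 to 0.39 for HBB1, -0.36 to 0.06 for LAMA1, -0.29 to 0.51 for LUM, -0.076 to 0.22 for MARCO, -0.054 to 0.11 for NOTCH2, -0.15 to 0.24 for PCNA, -0.23 to 0.10 for PTK7, -0.42 to 0.25 for SFRP2 and -0.027 to 0.49 for TIMP1. The causes of these changes were not tested.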

Other observations

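Signatures of connective tissue cell types, as listed by the study, were also described. Of 8 signatures, that of cycling cells had the highest median with MS-275, 0.64 over 11 of 25 genes, with 9 higher and none lower without overlap. With DMSO its median was 0.60 (0.05 with rescaled TPM), also with 9 higher and none lower. The signatures fCT I and fCT II of fibroblast-like connective tissue cells had medians of -0.52 over 18 genes, 13 of them lower and none higher, and of -0.54 over 13 genes, 8 of them lower. Tendon and periskeletal signatures had medians of 0.03 and -0.10 with MS-275, against 2.02 and 1.72 with DMSO (1.47 and 1.18 with rescaled TPM).

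Of the tested transcripts, 2.59% were listed at 0 in both 8 dpa MS-275 libraries and 5.30% in both 3 dpa MS-275 libraries, against 2.88% and 5.11% in the same days with DMSO and 6.69% at 0 dpa.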
